A study of Mus musculus with 2 samples.

Results

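The 9 genes described here are *Krt7*, *Krt8*, *Krt18*, *Krt19*, *Epcam*, *Cdh1*, *Cldn4*, *Cldn7* and *Muc1*, taken by symbol from the 32589 genes of the count matrices, and all 9 were present. They were followed by single-cell RNA-Seq in mouse livers that bore tumors, with 2 groups and 1 library for each. Cholangiocarcinomas (CCAs) had been started in both groups by hydrodynamic tail vein injection of NICD (the active part of a Notch receptor) and myr-AKT (a membrane-anchored, active AKT kinase). The mice of both groups carried shYT, doxycycline-inducible shRNAs for *Yap1* and *Wwtr1*, which encode YAP and TAZ, under the ubiquitous CAG-rtTA3 driver, so that the knockdown was not limited to tumor cells. Doxycycline was given from day 25, PBS or anti–PD-1 (days 26, 29 and 32) followed, and livers were analyzed on day 33. The labels give neither age, sex, shRNA line nor number of animals for these libraries. The study describes several animals per group and mice of both sexes, so a library may pool animals, which its cells cannot be traced to here. The question put to the data was how the epithelial genes of CCA cells differed when anti–PD-1 was added to YAP/TAZ depletion.

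Keratins are intermediate filament proteins that assemble as pairs of a type II and a type I chain. *Krt8* (type II) and *Krt18* (type I) form the pair of simple epithelia, including hepatocytes, whereas *Krt7* (type II) and *Krt19* (type I) are added in bile duct cells and are used by pathologists to recognize CCA. *Cdh1* encodes E-cadherin, the adhesion receptor of adherens junctions, *Cldn4* and *Cldn7* encode claudins of tight junctions, *Epcam* encodes an adhesion protein that binds claudin-7, and *Muc1* encodes a mucin of the apical membrane.

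Cells with 500 to 5000 genes detected were kept if no more than 10% of their UMIs (unique molecular identifiers, which count transcripts) were mitochondrial, which left 15531 cells of the PBS library and 16360 of the anti–PD-1 library. Each cell was then placed in 1 of 17 classes by marker genes, or in none. The epithelial class rested on 12 markers of tumor and bile duct cells (*Sox9*, *Cftr* and others) and on none of the 9 genes, and is called epithelial-like because malignant and normal bile duct cells were not separated. It held 1212 PBS cells (7.8% of kept cells, 95% exact binomial interval 7.39 to 8.24) and 666 anti–PD-1 cells (4.07%, 3.77 to 4.39). This difference in class size depended on the marker rule, since the 3 Leiden clusters (groups of cells alike over 2000 variable genes) whose markers were epithelial held 2104 PBS cells (13.5%, 13 to 14.1) and 1943 anti–PD-1 cells (11.9%, 11.4 to 12.4). The epithelial-like class took 1186 of these PBS cells and 656 of these anti–PD-1 cells, so it left out more of them with anti–PD-1. Of all UMIs of the 9 genes, 64.8% of 81648 lay in this class with PBS and 47.5% of 38687 with anti–PD-1.

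The libraries differed in more than the treatment. Epithelial-like cells had a median of 2915.5 UMIs with PBS and 1805 with anti–PD-1. They held 1632 UMIs of *Xist*, the transcript that silences an X chromosome in female cells, with PBS but 2 with anti–PD-1, beside 188 and 464 UMIs of 4 Y-linked genes. The 8 immune cell genes counted as a sign of RNA from other cells summed to 1547.4 CPM and 5772.3 CPM in epithelial-like cells (CPM brings the UMIs of every class and library to an equal total), 8 of 8 were higher with anti–PD-1, and none was at 0. Most of both sums was *Cd74* (942.5 and 4206.4 CPM), and the median log2 ratio of the 8 genes was 1.15. Whether these UMIs came from other cells was not tested. The knockdown targets were rare in both libraries, *Yap1* with 71 and 31 UMIs (10.6 and 11.3 CPM) and *Wwtr1* with 77 and 17 UMIs (11.5 and 6.21 CPM). As there was no replicate, no test between the groups was possible. All intervals (95%) describe counting error alone and say nothing of the spread between animals.

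The clusters that held the epithelial-like cells also differed between the libraries. Cluster 9 held 560 of its PBS cells (46.2%) but 58 of its anti–PD-1 cells (8.71%), cluster 2 held 463 (38.2%) and 527 (79.1%), and cluster 19 held 163 (13.4%) and 71 (10.7%). Ratios over the whole class therefore mix these clusters in unlike proportions. The clusters were made from both libraries together with no step to align them, and other classes split by library too. Neutrophil cluster 3 held 108 PBS and 2304 anti–PD-1 cells, and neutrophil cluster 10 held 1109 and 43. Whether cluster 9 marks another kind of cell or a shift between the libraries was not tested.

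*Krt8* and *Krt18*, whose products pair, lie next to each other in mm10, at chr15:101996698-102004482 on the reverse strand and chr15:102028180-102032027 on the forward strand, 23.7 kb apart with 0 annotated genes between them. *Krt7* lies on the same chromosome at chr15:101411043-101430313 (forward), 566.4 kb before *Krt8*. *Krt19* is at chr11:100140810-100148665 (reverse) and *Cldn7* at chr11:69964779-69967885 (forward). The others are *Epcam* at chr17:87635979-87651129 (forward), *Cdh1* at chr8:106603351-106670246 (forward), *Cldn4* at chr5:134945119-134946934 (reverse) and *Muc1* at chr3:89229057-89233381 (forward).

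RefSeq promoter windows (GRCm38.p6, 250 bases before to 50 after the RefSeq start, 5′ to 3′ along the gene) were matched for 7 of the 9 genes. Those of the *Krt8* and *Krt18* pair are shown because these genes were detected together, and those of *Krt7* and *Cldn4* because they differed most between the libraries, in opposite directions. Both strands were searched for 5 motifs, the TATA box written as TATAAA, the GC box as GGGCGG, an AP-1 site as TGANTCA, a TEAD site as CATTCC and a Grainyhead site as AACCNGTT. Capitals mark every match.
*Krt8*, chr15:102004293-102004592, reverse strand: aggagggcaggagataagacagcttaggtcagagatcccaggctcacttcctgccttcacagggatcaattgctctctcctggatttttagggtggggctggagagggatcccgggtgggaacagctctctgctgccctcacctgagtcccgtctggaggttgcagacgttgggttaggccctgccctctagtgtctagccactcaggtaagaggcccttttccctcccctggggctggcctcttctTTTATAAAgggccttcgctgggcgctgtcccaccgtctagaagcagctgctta
*Krt18*, chr15:102027966-102028265, forward strand: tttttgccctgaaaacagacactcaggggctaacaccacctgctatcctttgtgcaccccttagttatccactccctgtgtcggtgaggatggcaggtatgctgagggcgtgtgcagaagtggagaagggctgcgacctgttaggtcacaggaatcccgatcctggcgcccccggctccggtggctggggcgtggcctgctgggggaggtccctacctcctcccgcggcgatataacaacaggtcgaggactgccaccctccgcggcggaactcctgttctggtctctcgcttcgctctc
*Krt7*, chr15:101412153-101412452, forward strand: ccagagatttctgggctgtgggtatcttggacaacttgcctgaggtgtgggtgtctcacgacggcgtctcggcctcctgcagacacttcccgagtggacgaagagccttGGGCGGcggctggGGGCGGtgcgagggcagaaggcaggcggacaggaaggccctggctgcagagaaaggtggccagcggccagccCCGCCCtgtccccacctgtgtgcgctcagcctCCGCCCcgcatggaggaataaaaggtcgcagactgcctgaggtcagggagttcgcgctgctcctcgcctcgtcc
*Cldn4*, chr5:134946885-134947184, reverse strand: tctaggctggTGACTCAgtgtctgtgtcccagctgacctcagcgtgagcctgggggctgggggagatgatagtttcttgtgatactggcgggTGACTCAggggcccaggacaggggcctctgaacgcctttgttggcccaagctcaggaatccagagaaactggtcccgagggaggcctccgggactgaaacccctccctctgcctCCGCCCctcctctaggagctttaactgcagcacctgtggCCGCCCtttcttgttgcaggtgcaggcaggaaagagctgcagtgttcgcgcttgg
In the *Cldn4* window, TGANTCA matched 2 times, beginning 240 and 158 bases before the start, and 7.81% of 32851 RefSeq promoter windows hold it at least once. GGGCGG, held by 35.7% of windows, matched 4 times in *Krt7* and 2 times in *Cldn4*. The TATAAA matches of *Krt8* overlap on opposite strands at the annotated start, and 13.6% of windows hold this motif. The *Krt18* window held no match to these letters, and CATTCC, held by 14.7% of windows, matched in none of the 4 windows shown. It did match in windows not shown, of *Cldn7* and *Muc1*, beginning 70 and 132 bases before the start. AACCNGTT, held by 2.09% of windows, matched in that of *Muc1*. A match describes the sequence and does not show that a factor binds there.

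Over all epithelial-like cells the 4 keratins and *Muc1* had a lower level with anti–PD-1, *Cdh1*, *Cldn4* and *Cldn7* had a higher one, and *Epcam* was level within counting error. The 9 log2 ratios (anti–PD-1 over PBS, no pseudocount) ran from −1.26 to 1.26 with a median of −0.26, beside a median of −0.05 and an interquartile range of −0.26 to 0.19 over the 7172 genes with at least 20 CPM on average. One gene of the 9, *Cldn4*, was at least 2-fold higher and 1 gene, *Krt7*, at least 2-fold lower, where 3.79% of the 7172 genes were higher and 2.45% lower by that much, 6.25% either way. The UMIs of the 9 genes together made up 7879.5 CPM and 6712.2 CPM, a log2 ratio of −0.23 (−0.26 to −0.21).

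**Figure D1:**
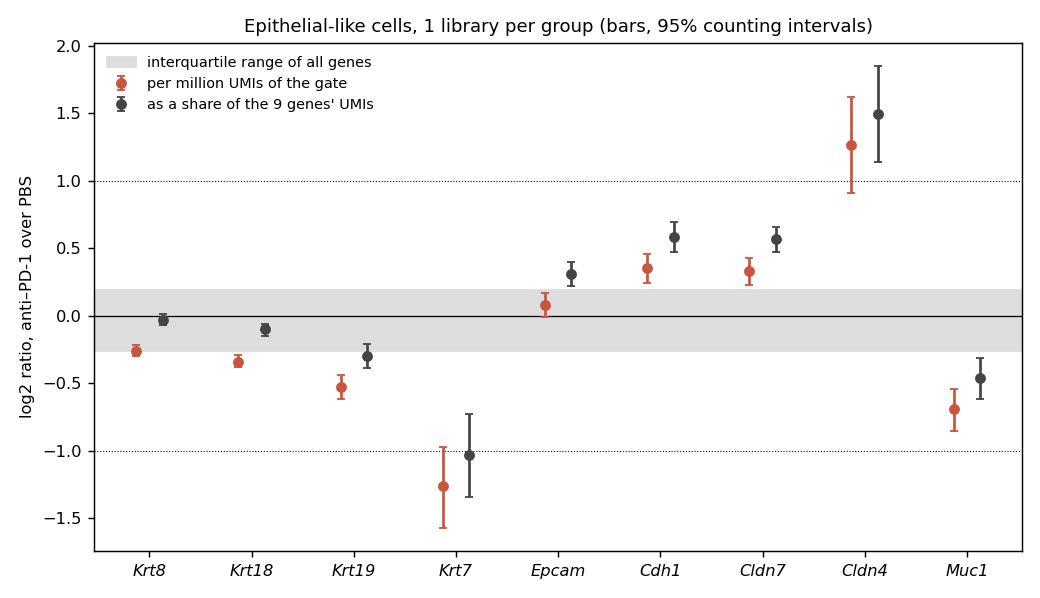
Log2 ratios of the 9 genes in epithelial-like cells, anti–PD-1 library over PBS library, as CPM (red) and as a share of the 9 genes' UMIs (dark), with 95% counting intervals; the grey band is the interquartile range of 7172 genes (−0.26 to 0.19) and dotted lines mark 2-fold. As CPM, *Krt7*, *Krt18*, *Krt19* and *Muc1* lie below the band, *Krt8* at its lower edge, and *Cdh1*, *Cldn7* and *Cldn4* above it. The band is of CPM ratios, and the share ratios are the CPM ratios shifted by an equal amount for all 9 genes.

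Of the 4 keratins of the set *Krt7* differed most over the whole class. It had 635 UMIs with PBS and 108 with anti–PD-1, or 94.5 CPM (87.3 to 102.2) and 39.4 CPM (32.3 to 47.6). Its level was thus 2.4-fold lower with anti–PD-1 (log2 ratio −1.26, −1.57 to −0.97), and 1.66% of the 7172 genes had a lower ratio. For *Krt19* the levels were 678.8 CPM (659.3 to 698.8) and 471.2 CPM (445.9 to 497.7), and the log2 ratio was −0.53 (−0.62 to −0.44), with 8.9% of genes below it. *Krt19* was not further from 0 than both genes of the simple pair under every setting, as with up to 20% mitochondrial UMIs it was at −0.38 beside −0.45 for *Krt18*. *Krt8* was at 3186.3 CPM and 2664.2 CPM, a log2 ratio of −0.26 (−0.30 to −0.22), at the lower edge of the interquartile range of all genes. *Krt18* was at 2493.5 CPM and 1976.5 CPM, a log2 ratio of −0.34 (−0.38 to −0.29), just outside it. For the 4 keratins the intervals of the libraries did not overlap. Over the whole class all 4 ratios were below 0 under each of 14 other settings, but among cells with a Y-linked UMI and no *Xist* UMI (74 and 223 cells) *Krt8* was nearly level (log2 ratio −0.02, −0.10 to 0.06) and *Krt7* further apart (−1.88, −2.38 to −1.39).

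*Muc1* was lower too, with 255.2 CPM (243.3 to 267.6) with PBS and 158.0 CPM (143.5 to 173.7) with anti–PD-1. The log2 ratio was −0.69 (−0.85 to −0.54), and 5.16% of genes had a lower one. This value depended on which cells were counted. It was −1.29 (−1.56 to −1.01) among Y-linked cells without *Xist*, and −0.05 (−0.38 to 0.27) among the 556 and 174 cells with no UMI of 4 immune cell genes (*Ptprc*, *Tyrobp*, *Laptm5*, *Coro1a*). A cell with few UMIs more readily lacks these 4 genes, so this subset is also a choice by depth, and its depth was not compared.

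Of the adhesion and junction genes 3 were higher with anti–PD-1 and *Epcam* was not distinguishable. It was at 495.5 CPM (478.8 to 512.6) and 524.5 CPM (497.7 to 552.4), overlapping intervals with a log2 ratio of 0.08 (−0.01 to 0.17). *Cdh1* was at 296.3 CPM (283.4 to 309.6) and 376.7 CPM (354.1 to 400.4), which gave a log2 ratio of 0.35 (0.24 to 0.46). *Cldn7* was at 358.8 CPM (344.6 to 373.4) and 452.2 CPM (427.4 to 478.1), with the log2 ratio at 0.33 (0.23 to 0.43). Of all genes, 84.8% had a lower ratio than *Cdh1* and 84.2% a lower one than *Cldn7*. Over the whole class *Cldn7* was higher under each of 14 other settings (0.20 to 0.43), though within counting error after thinning to 1000 UMIs before classing (0.23, −0.07 to 0.52). *Cdh1* was level in cells free of the 4 immune cell genes (−0.03, −0.35 to 0.27) and did not differ beyond counting error after the same thinning (−0.18, −0.52 to 0.15).

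*Cldn4* had the highest ratio of the 9 and few UMIs. Its 138 UMIs with PBS and 135 with anti–PD-1 came to 20.5 CPM (17.3 to 24.3) and 49.3 CPM (41.3 to 58.3), a level 2.4-fold higher with anti–PD-1 (log2 ratio 1.26, 0.91 to 1.62), and 97.4% of genes had a lower ratio. These UMIs came from few cells, 52 of 1212 and 35 of 666, with up to 22 and 26 UMIs in a cell. With every cell weighted alike the log2 ratio was 0.51, in cells free of the 4 immune cell genes it was 0.17 (−1.04 to 1.20), and in cells thinned before classing it was −0.41 (−2.26 to 1.20). The size of this difference was thus not settled at this depth, and its direction did not hold in every setting.

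Within the clusters, *Krt7*, *Krt19* and *Muc1* were lower with anti–PD-1 and the simple keratins were not always so. *Krt7* was at a log2 ratio of −1.12 (−1.69 to −0.57) in cluster 2, −1.04 (−1.46 to −0.65) in cluster 19 and −0.99 (−2.32 to 0.08) in cluster 9, where only 7 anti–PD-1 UMIs were counted. *Krt19* was at −0.33 (−0.45 to −0.21) in cluster 2, −1.71 (−1.90 to −1.52) in cluster 19 and −1.42 (−2.04 to −0.86) in cluster 9. *Muc1* was at −1.23 (−1.48 to −0.99), −0.74 (−0.96 to −0.54) and −1.57 (−3.46 to −0.19) in the same order. The lower level of the simple pair over the whole class was not seen in clusters 2 and 19. *Krt8* was at 0.08 (0.02 to 0.13) in cluster 2 and 0.03 (−0.09 to 0.14) in cluster 19, against −1.08 (−1.22 to −0.95) in cluster 9, which held 12826 of the 21409 *Krt8* UMIs of the PBS library. *Krt18* was higher with anti–PD-1 in cluster 2 (0.30, 0.23 to 0.36) and in cluster 19 (0.63, 0.52 to 0.74), and lower in cluster 9 (−1.24, −1.40 to −1.09).

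The junction genes varied between clusters as well. *Cldn7* was at 0.33 (0.19 to 0.47) in cluster 2 and 0.43 (0.23 to 0.63) in cluster 19 but at −1.0 (−1.51 to −0.52) in cluster 9. *Cdh1* was at 0.11 (−0.04 to 0.25), −0.12 (−0.39 to 0.15) and 0.44 (0.06 to 0.79) in clusters 2, 19 and 9, so its interval excluded 0 in cluster 9 alone. *Epcam* was at 0.04 (−0.08 to 0.16), −0.45 (−0.66 to −0.24) and −0.90 (−1.35 to −0.48). Most *Cldn4* UMIs lay in cluster 19, 104 of 138 with PBS and 108 of 135 with anti–PD-1, where the ratio was 1.51 (1.10 to 1.91), while in cluster 2 it was 0.71 (−0.22 to 1.69). Of the 9 genes 8 were among the variable genes that made the clusters, so the clusters are not independent of them. These cluster ratios were computed after the other values had been seen.

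Shares within the set of 9 do not depend on the UMIs of other genes. *Krt7* made up 1.2% of the 9 genes' UMIs with PBS and 0.587% with anti–PD-1, *Krt19* 8.61% and 7.02%, and *Muc1* 3.24% and 2.35%. The share of *Krt8* was close in both libraries (40.4% and 39.7%, log2 ratio −0.03, −0.07 to 0.01), and that of *Krt18* was slightly lower with anti–PD-1 (31.6% and 29.4%, log2 ratio −0.10, −0.15 to −0.06). *Epcam* made up 6.29% and 7.81%, *Cdh1* 3.76% and 5.61%, *Cldn7* 4.55% and 6.74%, and *Cldn4* 0.261% and 0.734%. Since *Krt8* and *Krt18* supply most of the set's UMIs, their shares can differ little on this scale. *Krt7*, *Krt19* and *Muc1* were a smaller part of the set with anti–PD-1, and the adhesion and junction genes a larger part. The log2 share ratios restate those of the CPM with the ratio of the set's sum (−0.23) taken out. *Epcam*, whose CPM was level within counting error, was thus a larger part here.

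To compare how many cells expressed each gene, cells were thinned at random to 1000 UMIs, which left out 120 PBS and 111 anti–PD-1 epithelial-like cells that were shallower. *Krt8* was then found in 80.5% of the 1092 PBS cells left and 79.1% of the 555 treated cells left, and *Krt18* in 70.9% and 69.4%, with differences (anti–PD-1 minus PBS) of −1.40 points (−5.69 to 2.74) and −1.51 points (−6.34 to 3.22). *Krt7* was found in 7.14% (5.69 to 8.83) and 2.16% (1.12 to 3.75), a difference of −4.98 points (−6.97 to −2.83). *Muc1* was found in 16% and 11.9%, a difference of −4.13 points (−7.59 to −0.47), and *Krt19* in 34.2% and 28.1%, a difference of −6.14 points (−10.85 to −1.30). Thinning to 2000 UMIs left out more cells, 458 with PBS and 365 with anti–PD-1, and kept 754 and 301. In these deeper cells the difference remained for *Krt7* (−5.62 points, −9.42 to −1.32), while the intervals of *Muc1* (−4.07 points, −9.49 to 1.73) and *Krt19* (1.69 points, −5.13 to 8.52) included 0.

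For the junction genes the result depended on the depth. At 1000 UMIs *Epcam* was found in 34.5% and 36.4% of cells, *Cdh1* in 23.9% and 24.5%, *Cldn7* in 26.4% and 30.6%, and *Cldn4* in 1.37% and 2.52%, and the interval of each difference included 0. At 2000 UMIs *Cdh1* was found in 38.1% and 46.2%, a difference of 8.12 points (1.36 to 14.89), and *Cldn4* in 2.39% and 5.65% (18 and 17 cells), a difference of 3.26 points (0.57 to 6.64), whereas those of *Epcam* (−1.22 points) and *Cldn7* (0.16 points) stayed within counting error. Without thinning, *Krt7* was found in 19.7% and 8.56% of cells, *Krt8* in 91.1% and 86.3%, and *Cdh1* in 51.4% and 46.4%. T cell-like cells, which should lack these genes, were used as a background, and whether free RNA or doublets gave their UMIs was not tested. After the same thinning the share in T cell-like cells was 10.9% and 6.02% for *Krt8*, 0.37% and 0.106% for *Krt7*, and between 0% and 9.61% for the others, in cells whose medians before thinning were 2802 and 3755 UMIs. Other classes differed, as *Krt8* was found in 16.1% of neutrophil-like and 6.71% of monocyte/macrophage-like cells with PBS. The 0% was *Cldn4* in 2706 T cell-like cells with PBS, which allows a share of up to 0.111% at a limit of 3 counts and up to 0.136% by the exact binomial interval.

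**Figure D2:**
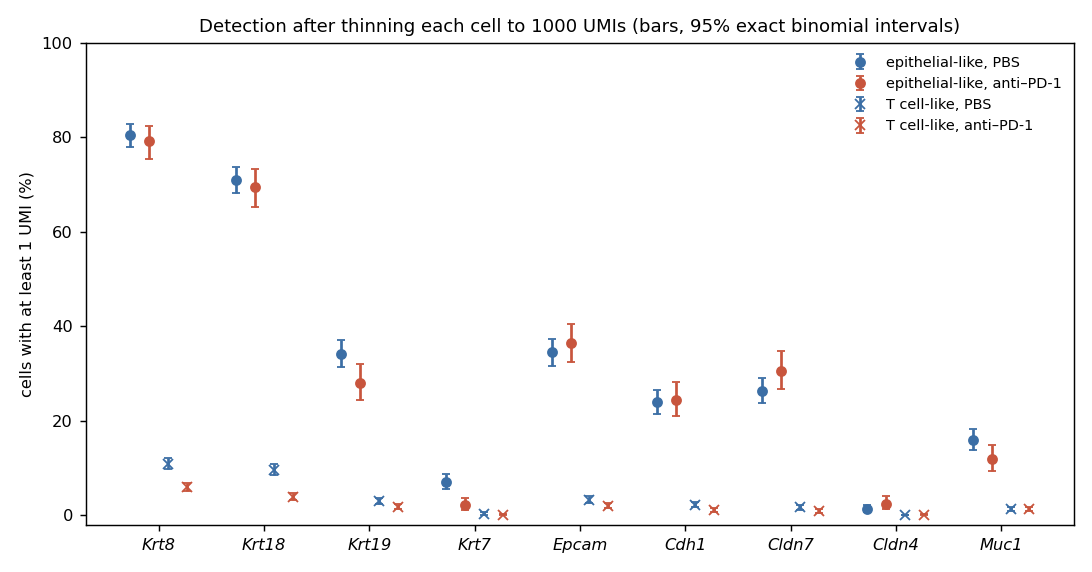
Percentage of cells with at least 1 UMI of each gene after every cell was thinned to 1000 UMIs, in epithelial-like cells (circles) and T cell-like cells (crosses) of the PBS (blue) and anti–PD-1 (red) libraries, with 95% exact binomial intervals. *Krt8* and *Krt18* were found in most epithelial-like cells of both libraries, *Krt7* in 7.14% and 2.16%, and the crosses show the share in T cell-like cells.

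The genes also differed in how evenly cells shared them. The 5% of epithelial-like cells with the most UMIs of a gene held 34.4% (PBS) and 37% (anti–PD-1) of *Krt8* UMIs and 29.9% and 37.6% of *Cdh1* UMIs, but 58.6% and 78.7% of *Krt7* UMIs, 58.5% and 55.9% of *Muc1* UMIs, and 100% and 99.3% of *Cldn4* UMIs. This share rises as counts fall, and for *Cldn4* the 52 PBS cells with a UMI were fewer than the 61 cells of the highest 5%. *Krt7* was seen in 239 of the 1212 untreated cells and 57 of the 666 treated ones, *Muc1* in 385 and 162, *Cldn7* in 649 and 329, *Cdh1* in 623 and 309, and *Krt8* in 1104 and 575.

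No cell showed the whole set at 1000 UMIs, and 1 PBS cell showed 8 of the 9 genes. Exactly 2, 3 and 4 of the 9 genes were found in 23%, 25.5% and 19.9% of cells with PBS and in 24%, 28.8% and 19.6% with anti–PD-1, and none of the 9 in 5.13% and 4.86%. In the PBS library the 78 cells with a *Krt7* UMI also had *Krt19* in 53.8% (42.2 to 65.2), against 32.7% (29.9 to 35.7) of the 1014 cells without one. The same cells had *Muc1* in 32.1% (21.9 to 43.6) against 14.8% (12.7 to 17.1), and *Cldn4* in 7.69% (2.88 to 16) against 0.888% (0.407 to 1.68). *Epcam* was found in 46.2% (34.8 to 57.8) against 33.6% (30.7 to 36.6), *Cdh1* in 35.9% (25.3 to 47.6) against 23% (20.4 to 25.7), *Cldn7* in 35.9% against 25.6% and *Krt8* in 87.2% against 80%. All 8 other genes were thus found more often in the PBS cells with a *Krt7* UMI, and the intervals did not overlap for *Krt19*, *Muc1* and *Cldn4*. Only 12 anti–PD-1 cells had a *Krt7* UMI at this depth, and 41.7% (15.2 to 72.3) of them had *Muc1* against 11.2% (8.7 to 14.2) of the other 543. *Krt8* and *Cdh1* were less frequent in these 12 cells (66.7% against 79.4%, and 8.33% against 24.9%), with wide intervals that overlapped those of the other cells.

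Correlations across thinned epithelial-like cells were weak and are given as a description, since all cells of a library share its preparation. Over the 36 pairs the median Pearson r was 0.09 with PBS (1092 cells) and 0.08 with anti–PD-1 (555 cells). *Krt8* and *Krt18* had the highest r in both libraries (0.47 and 0.32). *Krt19* and *Muc1* came next with PBS (0.32) and stood at 0.13 with anti–PD-1.

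**Figure D3:**
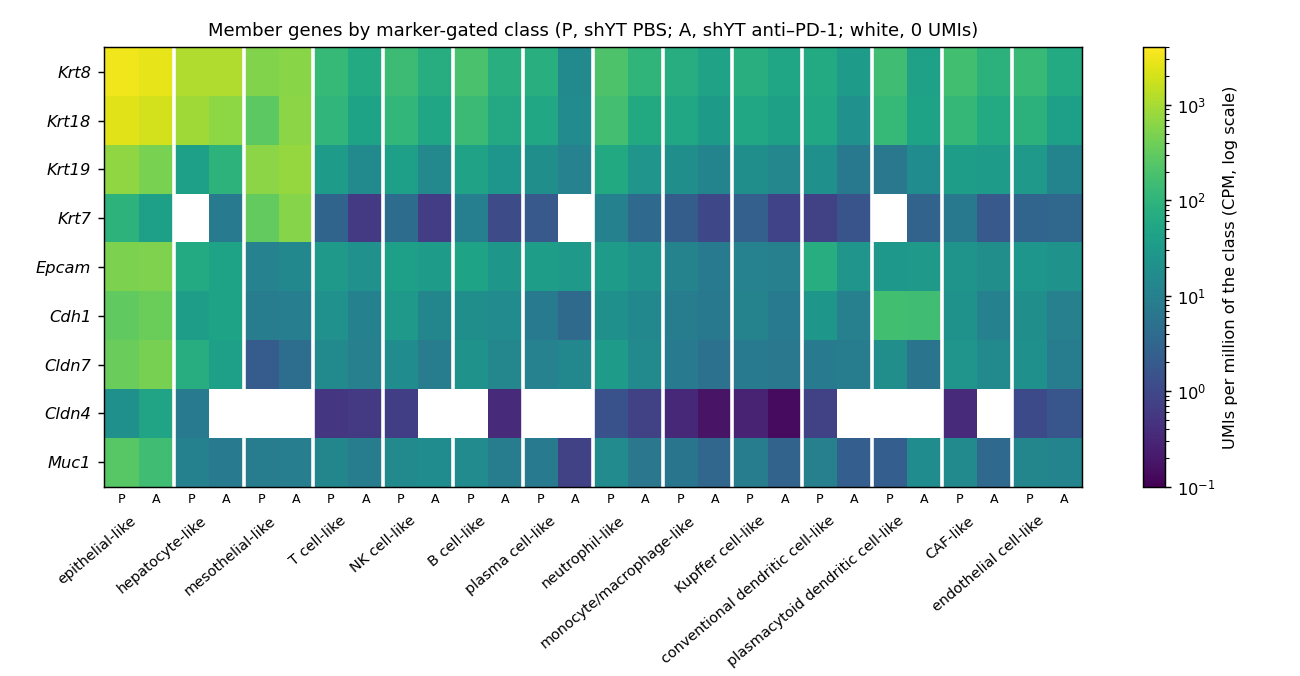
Level of each of the 9 genes (CPM, colour on a log scale) in 14 marker-gated classes of the PBS library (P) and the anti–PD-1 library (A), white where no UMI was found. All 9 lie above their immune levels in epithelial-like cells, the 4 keratins are also high in mesothelial-like cells, *Krt8* and *Krt18* in hepatocyte-like cells, and *Cdh1* in plasmacytoid dendritic-like cells.

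Outside the epithelial-like class most classes held the 9 genes at low levels. Cells placed in no class (3472 and 4429, 22.4% and 27.1% of kept cells) held more, with 4280 and 3189 *Krt8* UMIs (348.2 and 205.0 CPM). In the pooled UMIs of 7 immune classes (T, NK and B cells, plasma cells, neutrophils, monocytes/macrophages and Kupffer cells) *Krt8* stood at 95.9 CPM and 62.7 CPM, and the level in epithelial-like cells was 23 to 53.2 times the immune level with PBS and 25.9 to 142.4 times with anti–PD-1, depending on the gene. The proportions of the set in these immune cells were near those in epithelial-like cells for some genes and apart for others. *Krt18* stood at 76.8 and 71.9 UMIs per 100 *Krt8* UMIs beside 78.3 and 74.2 in epithelial-like cells, with overlapping intervals in both libraries. *Krt19* was higher in the immune classes, at 26.7 (25.1 to 28.4) and 25.8 (24 to 27.8) beside 21.3 (20.6 to 22) and 17.7 (16.7 to 18.8). *Epcam* was higher there too, at 19.5 (18.2 to 20.9) and 27.6 (25.7 to 29.7) beside 15.5 (15 to 16.1) and 19.7 (18.6 to 20.8), as was *Muc1*, at 9.38 (8.51 to 10.3) and 9.74 (8.68 to 10.9) beside 8.01 (7.62 to 8.41) and 5.93 (5.37 to 6.54). *Krt7* was at 3.28 (2.79 to 3.83) and 1.83 (1.4 to 2.35) per 100 *Krt8* UMIs in the immune classes, beside 2.97 (2.74 to 3.21) and 1.48 (1.21 to 1.79) in epithelial-like cells, so it was lower with anti–PD-1 in both. *Cdh1* was at 13.4 (12.4 to 14.6) and 16.4 (14.9 to 17.9), beside 9.3 and 14.1, and *Cldn7* at 11.9 (10.9 to 13) and 14.9 (13.5 to 16.3), beside 11.3 and 17. For *Cldn4* the immune values were 0.402 (0.246 to 0.622) and 0.552 (0.332 to 0.864), whose intervals overlapped, beside 0.645 (0.541 to 0.762) and 1.85 (1.55 to 2.19) in epithelial-like cells. Plasma cell-like cells had 50 (36 to 68.7) and 200 (112.5 to 367.3) *Epcam* UMIs per 100 *Krt8* UMIs, but *Krt8* was low there (76.6 and 15.1 CPM, 19 UMIs with anti–PD-1). Their *Epcam* level, 38.3 CPM (29.2 to 49.3) and 30.2 CPM (21.4 to 41.4), was above the 18.7 and 17.3 CPM of the 7 immune classes. It was not above that of NK cell-like cells (40.1 and 33.7 CPM). These were shallower, with medians of 2760 and 3761 UMIs against 16190.5 and 18163 in plasma cell-like cells.

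Dendritic cells also departed from the epithelial-like proportions. Plasmacytoid dendritic-like cells (79 and 52) had *Cdh1* at 162.3 CPM (126.3 to 205.5) and 157.5 CPM (118.3 to 205.5), against 12.9 and 10.3 CPM in the 7 immune classes. This was 103.0 (72.5 to 146.3) and 360 (200.2 to 686.9) *Cdh1* UMIs per 100 *Krt8* UMIs, while *Epcam* and *Cldn7* stood at 28.2 and 18.8 CPM with PBS and at 29.2 and 5.83 CPM with anti–PD-1. After thinning, a *Cdh1* UMI was found in 16.5% (9.06 to 26.5) and 13.5% (5.59 to 25.8) of these cells, against 2.29% and 1.06% of T cell-like cells. The level of *Cdh1* in this class did not differ between libraries beyond counting error (log2 ratio −0.04). Conventional dendritic-like cells (151 and 104) had *Epcam* at 73.8 CPM (59.7 to 90.3) and 25.3 CPM (17.3 to 35.7), or 114.5 (84.4 to 155.6) and 72.7 (44.6 to 117.3) per 100 *Krt8* UMIs, where the 7 immune classes had 19.5 and 27.6. As a level, the PBS value was above the 18.7 CPM of the 7 immune classes, whereas the anti–PD-1 value was not distinguishable from their 17.3 CPM. A *Cldn4* UMI was found once in the 2 dendritic classes.

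**Figure D4:**
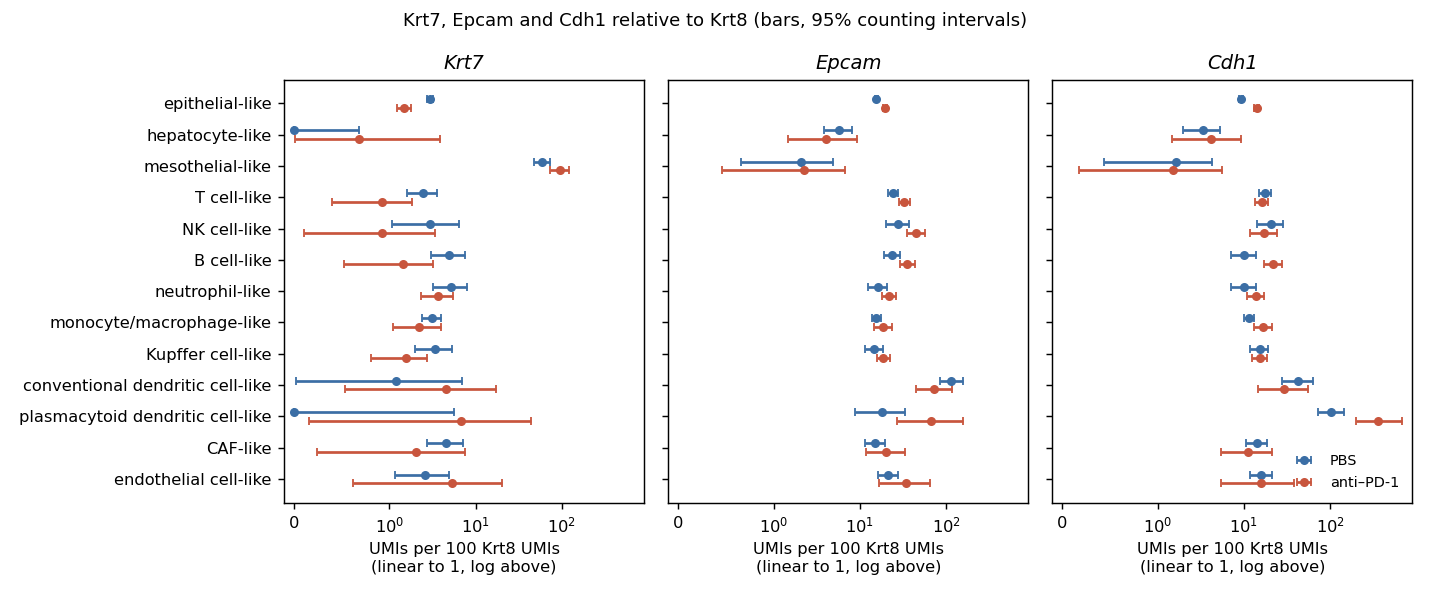
UMIs of *Krt7*, *Epcam* and *Cdh1* per 100 *Krt8* UMIs of the same class in the PBS (blue) and anti–PD-1 (red) libraries, with 95% counting intervals, on an axis that is linear to 1 and logarithmic above. Some classes, plasma cell-like and basophil/mast-like cells among them, are not drawn. Among the classes drawn, mesothelial-like cells lie highest for *Krt7* and plasmacytoid dendritic-like cells for *Cdh1* in both libraries. For *Epcam*, conventional dendritic-like cells lie highest in both (114.5 and 72.7).

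Some classes had fewer than 50 cells in at least 1 library and were described after their values had been seen. Mesothelial-like cells (52 and 29), the lining of the liver surface, had *Krt7* at 315.8 CPM (266.1 to 372.0) and 586.2 CPM (487.9 to 698.4), above the epithelial-like level. *Krt19* was at 647.0 and 740.9 CPM there, *Krt8* at 536.6 and 619.0 CPM and *Krt18* at 271.6 and 628.4 CPM, but *Epcam*, *Cdh1*, *Cldn7* and *Muc1* had 1 to 5 UMIs each per library and *Cldn4* had 0. *Krt7* was therefore higher in the anti–PD-1 library in this class (log2 ratio 0.89) and lower in epithelial-like cells, a difference that was not tested. Hepatocyte-like cells (151 and 29) held the simple pair and little or no *Krt7*, with *Krt8* at 1126.1 and 1152.6 CPM, *Krt18* at 870.5 and 671.0 CPM, *Krt19* at 39.5 (23.8 to 61.6) and 94.7 CPM (48.9 to 165.5), and 0 and 1 UMI of *Krt7*. The *Krt19* level was above the 25.6 and 16.2 CPM of the 7 immune classes, with PBS by less than counting error. Pancreatic acinar-like cells were found only in the anti–PD-1 library (152 cells), with *Krt8* at 276.7 CPM, *Krt18* at 344.1 CPM and *Krt7* at 2.81 CPM. Basophil/mast-like cells (10 and 8) had 13 and 8 *Cdh1* UMIs and 0 of *Krt7*, *Cldn4*, *Cldn7* and *Muc1* in the PBS library.

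The other junction genes showed no common direction. Of 21 tight junction genes 20 were measured at 20 CPM or more, 9 were higher and 11 lower with anti–PD-1, and their median log2 ratio was −0.03, beside −0.05 over all 7172 genes. *Cldn1*, a claudin that seals the paracellular space, was the only one beyond 2-fold (46 and 17.9 CPM, log2 ratio −1.36, −1.83 to −0.92), but 259 of its PBS UMIs lay in cluster 9, where it was at −2.64 (−4.93 to −1.08) from 3 anti–PD-1 UMIs, and in cluster 2 it was level within counting error (0.17, −0.46 to 0.80). *Cldn2*, which forms a cation channel, was at −0.63 (−0.82 to −0.44), and the scaffold genes *Tjp3* and *Tjp1* at 0.76 (0.53 to 0.98) and −0.39 (−0.65 to −0.14). *Pard6b*, a polarity gene, was at 0.56 (0.31 to 0.80). *Cldn3* (454.7 and 429.3 CPM, log2 ratio −0.08, −0.18 to 0.01) and *Ocln* (0.12, −0.20 to 0.43) were level within counting error.

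Adherens junction genes showed no common direction either, with 8 of 10 measured, 4 higher and 4 lower, none beyond 2-fold and a median of −0.06. *Ctnnb1*, which encodes the β-catenin that binds E-cadherin, was at 356.9 and 361.7 CPM (log2 ratio 0.02, −0.09 to 0.13). *Vcl*, which links junctions to actin, was at −0.74 (−1.03 to −0.45), *Nectin3* at −0.55 (−0.78 to −0.34), *Nectin2* at 0.31 (0.13 to 0.49) and *Ctnnd1* at 0.17.

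The desmosome list held the gene with the largest ratio among the measured genes of all lists. *Perp*, a membrane protein of desmosomes and a target of p53, had 6761 UMIs with PBS but 426 with anti–PD-1, or 1006.2 and 155.5 CPM (log2 ratio −2.69, −2.84 to −2.55), and stayed at −2.07 or below under each of the 14 other settings over the whole class. Within clusters it was at −1.42 (−1.60 to −1.23) in cluster 2, −0.92 (−1.49 to −0.39) in cluster 19 and −2.74 (−3.13 to −2.37) in cluster 9, which held 5621 of its PBS UMIs. The plaque protein gene *Dsp* was at 249.9 and 146.7 CPM (−0.77, −0.93 to −0.61), while *Dsg2*, a desmosomal cadherin, was at 0.24 and *Pkp2* at −0.12. Of 9 listed genes 6 were measured, with 1 beyond 2-fold and a median of −0.04. Of 6 hemidesmosome genes 4 were measured, none beyond 2-fold, with a median of −0.45. *Itgb4*, the integrin chain specific to hemidesmosomes, was at −0.75 (−1.07 to −0.44), *Plec* at −0.49 and *Itga6*, the partner chain of *Itgb4*, at 0.07.

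Of 8 other keratins 3 were measured. *Krt20*, a keratin of intestinal epithelium, was at 83.3 and 29.2 CPM (log2 ratio −1.51, −1.87 to −1.17, and further apart in cluster 2 at −2.43, in Y-linked cells at −2.55 and after thinning at −2.63), *Krt23* at 13.8 and 35.8 CPM (1.37, 0.95 to 1.79), and *Krt17* at 80.5 and 99.3 CPM (0.30, 0.09 to 0.52). None of 6 other mucins reached 20 CPM. *Muc4* and *Muc13*, named after their values were seen, had 44 and 29 UMIs with PBS and 0 each with anti–PD-1, at least 5.98-fold and 3.94-fold lower against a limit of 3 counts per library. Among 6 epithelial regulators 3 were measured, with *Elf3*, a transcription factor of epithelial differentiation, at 103.6 and 171.6 CPM (0.73, 0.56 to 0.90), *Esrp1* at 0.23 and *Klf5* at −0.24.

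Of 10 mesenchymal genes 3 were measured and all 3 were lower with anti–PD-1 in epithelial-like cells, none beyond 2-fold in the main setting. Under other settings the log2 ratio of *Vim* ran from −1.20 with no upper limit on detected genes to −0.48 after thinning. *Vim*, the intermediate filament gene of mesenchymal cells, was at 629.4 and 321.6 CPM (log2 ratio −0.97, −1.08 to −0.86), *Fn1* (fibronectin) at 286.6 and 155.1 CPM (−0.89) and *Zeb2*, a repressor of *Cdh1*, at 66.2 and 35 CPM (−0.92). For *Vim*, 3097 of 4229 PBS UMIs lay in cluster 9 (log2 ratio −1.32 there), and it was at −0.39 (−0.53 to −0.25) in cluster 2 and −0.04 (−0.82 to 0.68) in cluster 19. Macrophages, CAFs and other cells also express these 3 genes. In the same cells the marker sums of CAFs were 61.3 and 45.6 CPM, those of monocytes/macrophages 438.0 and 683.3 CPM, those of Kupffer cells 74 and 320.5 CPM, those of neutrophils 250.2 and 858.5 CPM, and those of hepatocytes 1077.7 and 1387.4 CPM, and the part of such RNA in the ratios was not tested.

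**Figure D5:**
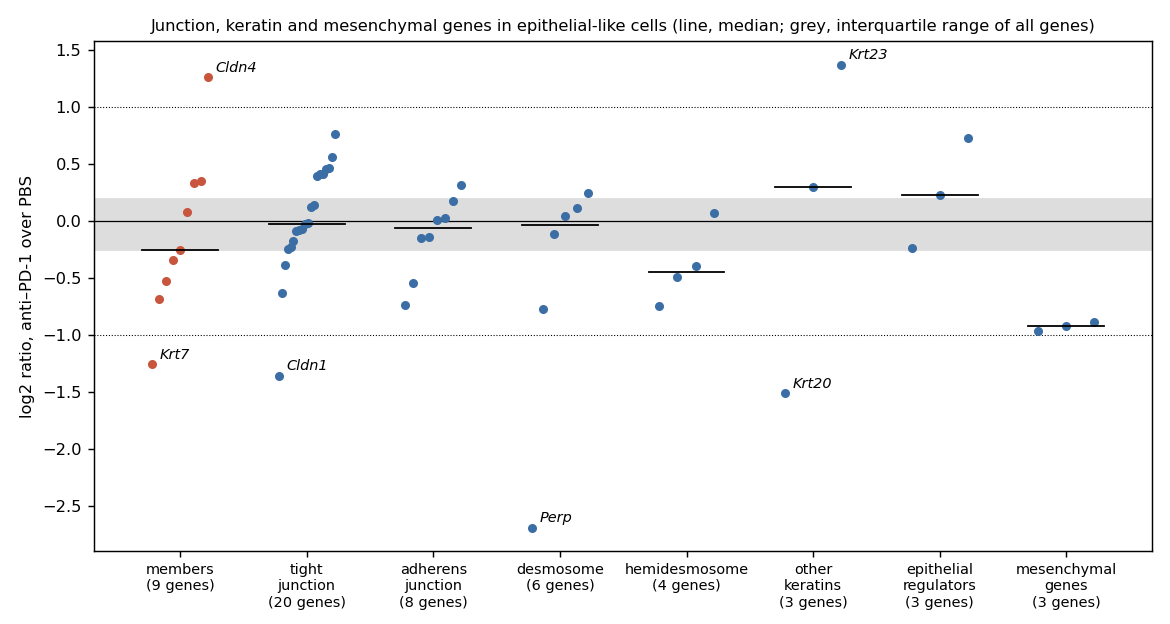
Log2 ratios (anti–PD-1 over PBS) in epithelial-like cells for the 9 genes (red) and for the measured genes of 7 lists (blue), with the median of each list as a black line, the interquartile range of 7172 genes in grey and 2-fold as dotted lines. Tight junction, adherens junction and desmosome medians lie between −0.06 and −0.03, and the genes beyond 2-fold are named.

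Across the 27 sums of class and library with at least 50 cells, the genes outside the set whose level (log2 of CPM plus 5) was most like that of the 9 genes together were *Cldn3* (Pearson r 0.965), *Cxadr* (0.951), *Clu* (0.948), *Dsg2* (0.944) and *Ddo* (0.938). The sums of a library share its free RNA, so these values describe the pattern and carry no test.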

How the data were processed

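Deposited were raw counts of UMIs for each gene in each barcode, which the authors made with the Singleron software against mm10 (version, annotation, strand handling and the treatment of reads shared by near-identical genes are not given in the sources used here; the submitters' processing notes name Seurat 4.3). Analysis used Python 3.11.15 and scipy 1.17.1. A cell was classed by marker z-scores (limited to 5) at a mean of at least 0.5, 0.25 above the next class, with 3 markers. This rule was set after the files were seen. Members and lists were chosen with earlier results of these data known. Sums carry exact Poisson, ratios conditional binomial and shares Clopper-Pearson intervals. The code was tested on simulated data. Named genes were the members in classes of at least 50 cells in both libraries, up to 4 genes per list with the largest ratios, 6 fixed junction and mesenchymal genes and the 5 most alike. Doublets were kept, since Scrublet (scanpy 1.11.5) marked only 0 and 2 cells and had not worked. Of 219 barcodes shared by the libraries, 145 were among kept cells. Whole-library UMIs were 121713441 (PBS) and 100807037 (anti–PD-1). Coordinates came from GENCODE vM21, which held 99.6% of gene identifiers. Certain list genes are not reported here.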

Additional observations from a re-analysis of the deposited data

How the results depend on the processing

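The median log2 ratio of the 9 genes in epithelial-like cells (−0.26) was −0.21 with median-of-ratios scaling (a shift of 0.05), −0.05 in cells without 4 immune cell genes, −0.02 in cells positive for Y-linked genes and free of *Xist*, −0.41 with every cell weighted alike, −0.42 with Leiden clusters in place of the gate, −0.35 after thinning to 1000 UMIs and −0.18 in cells of at least 3000 UMIs, and lay between −0.29 and −0.26 under the other settings over the whole class. The number of genes beyond 2-fold (2) was 1 with up to 20% mitochondrial UMIs, without the 4 immune cell genes, with every cell weighted alike and with Leiden clusters (*Krt7* in each), and where it stayed 2 after thinning and in the Y-linked cells the second gene was *Muc1* in place of *Cldn4*. Within clusters 2, 9 and 19 of the class the median was 0.08, −1.0 and −0.12 and the number beyond 2-fold 2, 4 and 3. The share of all genes beyond 2-fold was computed for the cells of the main setting alone, not under the other settings or within clusters. The numbers of genes beyond 2-fold given for those have no background to be read against. Cluster 9 held only 58 anti–PD-1 cells. The sign changed for *Krt8* (0.08 and 0.03) and *Krt18* (0.30 and 0.63) in clusters 2 and 19, *Cldn1* (0.17) in cluster 2, *Cldn4* (−0.21) and *Cldn7* (−1.0) in cluster 9, *Cdh1* (−0.12) in cluster 19 and *Epcam* in clusters 9 (−0.90) and 19 (−0.45). *Cdh1* changed sign without the 4 immune cell genes (−0.03) and after thinning (−0.18), *Cldn4* after thinning (−0.41), and the difference in *Krt19* detection at 2000 UMIs (1.69 points). Detection differences within counting error at 1000 UMIs also changed sign, for *Krt8* (2.44 points) and *Epcam* (−1.22) at 2000 UMIs and for *Epcam* (−5.24), *Cdh1* (−5.01) and *Cldn7* (−4.15) without thinning. The causes were not tested. *Krt7*, *Krt8*, *Krt18*, *Krt19*, *Muc1* and *Cldn7* kept their direction in 14 of 14 settings other than the single clusters, *Cldn4* in 13, *Cdh1* in 12 and *Epcam* in 10. These settings overlap, and some, such as the shift of 0.05, could hardly change a sign. Some values kept their direction only within counting error, so these counts do not measure certainty. The settings of at least 3000 UMIs, 2 markers, no acinar genes and no cells of the highest 6% of doublet scores and the single clusters were chosen after seeing the data. Without the filter on low levels 20.2% of 16166 genes passed 2-fold. The alternative that left out doublets marked by Scrublet was not run because it marked too few cells. No paired analysis was possible because each group has 1 library. *Cldn4* and *Krt7* had the fewest UMIs of the 9, and differences between animals cannot be told apart from the treatment. This includes sex, as *Xist* UMIs of epithelial-like cells were nearly confined to the PBS library (1632 and 2).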
